A study of Mus musculus with 58 samples.

Results

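The caudate-putamen (CPU) and the substantia nigra (SN) are both ends of the nigrostriatal pathway. All samples that the tissue labels place in CPU (6 samples) were compared with all those placed in SN (6 samples), 12 of the 53 samples from 11 brain regions of C57BL/6 mice, all 12 labelled healthy and with no treatment named, and all 382 CpGs of the array were used. The 53 include frontal cortex samples that carry a wild-type genotype label. Arrays of the series labelled with another genotype were left out. Genomic DNA was bisulphite-converted, which turns unmethylated cytosine into uracil, and read on an Illumina GoldenGate bead array of custom design. Values are beta values: the signal of the methylated form divided by that of both forms, 0 for no methylation and 1 for full. The CPU samples carry the codes F1, F2, F4, M1, M3 and M4, with CPU M4 run on a pair of arrays that were averaged, and the SN samples carry the same 6 codes. The labels give neither age nor sex nor whether each sample is its own animal, so the spread behind the p-values may be partly technical. Each CpG is named for a gene, with no position relative to it in the files used.

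Dopamine neurons of the substantia nigra send their axons to the caudate-putamen, the input nucleus of the basal ganglia, where most neurons are GABAergic spiny projection neurons that carry dopamine D1 or D2 receptors. These neurons project back to the substantia nigra, directly or through the globus pallidus (GP), so both regions belong to 1 circuit and hold different neurons. CpG methylation at gene starts is generally low where genes can be active and is a stable mark that differs between cell types. A beta value of a dissected piece of tissue averages over all its cells, so a different mix of cells and a different methylation within 1 cell type cannot be told apart.

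Of the 382 CpGs, 29 (7.59%) differed between CPU and SN by limma at an adjusted p under 0.05, with 4 (1.05%) higher and 25 (6.54%) lower in CPU. The widest difference in either direction was at Grm2, a presynaptic metabotropic glutamate receptor, with a mean beta of 0.350 ± 0.0679 in CPU and 0.161 ± 0.0194 in SN (SD, n = 6 each). The widest of the lower CpGs were at Tbx1, a T-box transcription factor of embryonic development, Ide, the insulin-degrading enzyme, Spnb4, the spectrin of axon initial segments and nodes, and Kcnip1, an auxiliary subunit of Kv4 potassium channels, each lower by between 0.148 and 0.162 in mean beta. None of the 5 dopamine receptor CpGs passed the test, beside 7.59% of all CpGs that did. Differences were of moderate size: 17 of the calls (4.45% of CpGs) reached 0.1 in mean beta, 3 of them higher and 14 lower in CPU, and no CpG reached 0.2.

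**Figure D1:**
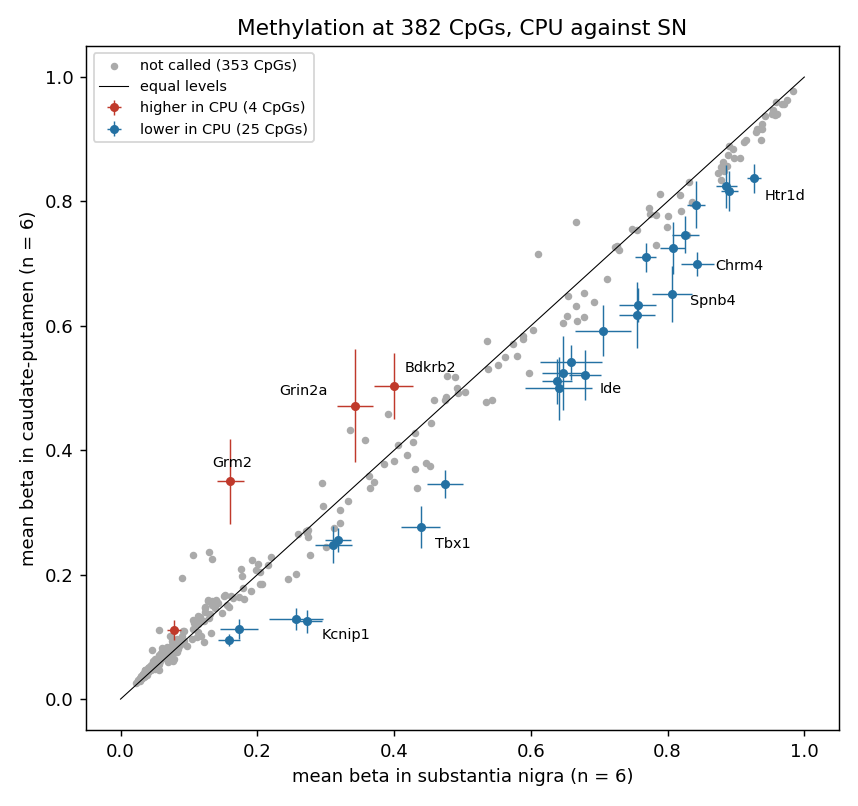
Mean beta of each of 382 CpGs in CPU (vertical axis, n = 6) against SN (horizontal axis, n = 6). Coloured points are the 29 CpGs that differed, with bars of 1 SD in each region, and the line marks equal levels. The 4 CpGs higher in CPU lie above the line at beta under 0.6, while the 25 lower ones spread from 0.0948 to 0.838 in CPU.

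Calls were more frequent at intermediate levels. With the levels of CPU and SN averaged, 20 of 101 CpGs (19.8%) between 0.2 and 0.8 were called, against 5 of 241 (2.07%) below 0.2 and 4 of 40 (10%) above 0.8. At 30 CpGs (7.85%) the 6 CPU and the 6 SN samples did not overlap, with CPU above SN at 4 and below at 26. Of the 29 calls 23 were of this kind, 2 of the higher and 21 of the lower ones. The other 7 were not called, among them Grik4. Over all CpGs the median difference, CPU minus SN, was 0.081 on the log2(beta / (1 - beta)) scale on which the tests were made, and 233 CpGs were higher and 149 lower. That median was -0.038 with each array centred on its own median.

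Promoters are shown as sequence context for 3 genes, the calls of widest log2 difference whose gene had a single listed RefSeq start. Kcnip1 and Htr1d had wider log2 differences than Ednrb and Chrm4 and were passed over by this rule. Each is the 250 bases before the RefSeq start of the gene in GRCm38.p6, 5′ to 3′ on the gene's strand, with each CG in capitals: chr9:106656110-106656359 on the minus strand for Grm2, chr14:103843702-103843951 on the minus strand for Ednrb, the endothelin B receptor, and chr2:91921939-91922188 on the plus strand for Chrm4, the M4 muscarinic receptor. Which CG of a gene the array reads is not stated, so the measured one may lie outside the window.
Grm2: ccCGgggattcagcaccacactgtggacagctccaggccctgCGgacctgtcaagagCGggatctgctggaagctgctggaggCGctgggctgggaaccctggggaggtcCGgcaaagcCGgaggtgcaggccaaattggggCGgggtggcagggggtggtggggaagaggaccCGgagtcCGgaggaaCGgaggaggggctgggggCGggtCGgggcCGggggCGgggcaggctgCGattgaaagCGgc
Ednrb: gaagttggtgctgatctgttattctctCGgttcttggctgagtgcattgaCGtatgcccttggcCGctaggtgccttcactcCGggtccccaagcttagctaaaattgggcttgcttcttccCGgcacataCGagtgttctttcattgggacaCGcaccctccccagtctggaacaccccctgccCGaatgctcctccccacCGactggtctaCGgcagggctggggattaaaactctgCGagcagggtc
Chrm4: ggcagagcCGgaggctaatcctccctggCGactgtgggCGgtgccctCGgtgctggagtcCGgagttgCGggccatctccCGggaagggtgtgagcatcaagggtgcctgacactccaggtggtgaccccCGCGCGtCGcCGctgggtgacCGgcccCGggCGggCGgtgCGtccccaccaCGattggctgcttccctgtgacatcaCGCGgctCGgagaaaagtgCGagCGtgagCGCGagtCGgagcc
The Chrm4 window holds 26 CG, and 9.59% of 32851 RefSeq promoter windows of the same length hold at least as many. The Grm2 window holds 16 (25.4% of windows hold at least as many) and the Ednrb window 11 (35.6%), while the median window holds 6. All 3 windows hold more CG than the median, and the measured CpG was at a low level for Ednrb, a low to intermediate level for Grm2 and a high level for Chrm4.

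Of the glutamate receptor CpGs, 1 of 7 metabotropic and 1 of 18 ionotropic ones were higher in CPU, beside 1.05% of all CpGs, and none was lower. Grm2 encodes the Gi-coupled receptor mGlu2, which lowers glutamate release from cortical and thalamic terminals. Its beta ran from 0.246 through a median of 0.360 to 0.452 in CPU, against 0.139, 0.159 and 0.185 in SN. All CPU samples lay above all SN samples, and the log2 difference was 1.48 ± 0.16 (SE, adjusted p = 2.8e-09). Grm2 was higher in CPU than in any other region: the highest mean among the 9 other regions was 0.259 in the basolateral amygdala (BLA), and GP, the neighbour of CPU, had 0.177.

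Grin2a encodes the GluN2A subunit of NMDA receptors. Its beta ran from 0.357 through a median of 0.490 to 0.588 in CPU, against 0.311, 0.350 and 0.374 in SN. The groups overlapped, with 4 CPU samples above all SN samples. The log2 difference of 0.78 ± 0.25 (adjusted p = 0.0403) was the least secure of the higher calls: it was lost without any 1 of SN F1, F2, M1, M3 or M4 or of CPU F2, F4, M1 or M4, with array M4_b alone for CPU M4, and with the arrays centred on their medians. Of the 18 ionotropic glutamate receptor CpGs, Grin2a alone was called, and 16 had a higher log2 value in CPU, beside 233 of all 382 CpGs, with a median of 0.18 against 0.081 over all CpGs (0.065 against 0.022 after quantile normalization and 0.056 against -0.038 after centring). Grik4, a kainate receptor subunit, was at 0.0511 ± 0.0039 in CPU and 0.0412 ± 0.00373 in SN without overlap, and did not pass the test (adjusted p = 0.0893). Of 7 metabotropic receptor CpGs Grm2 was called, and the median log2 difference was 0.17 (0.043 after quantile normalization and 0.049 after centring).

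**Figure D2:**
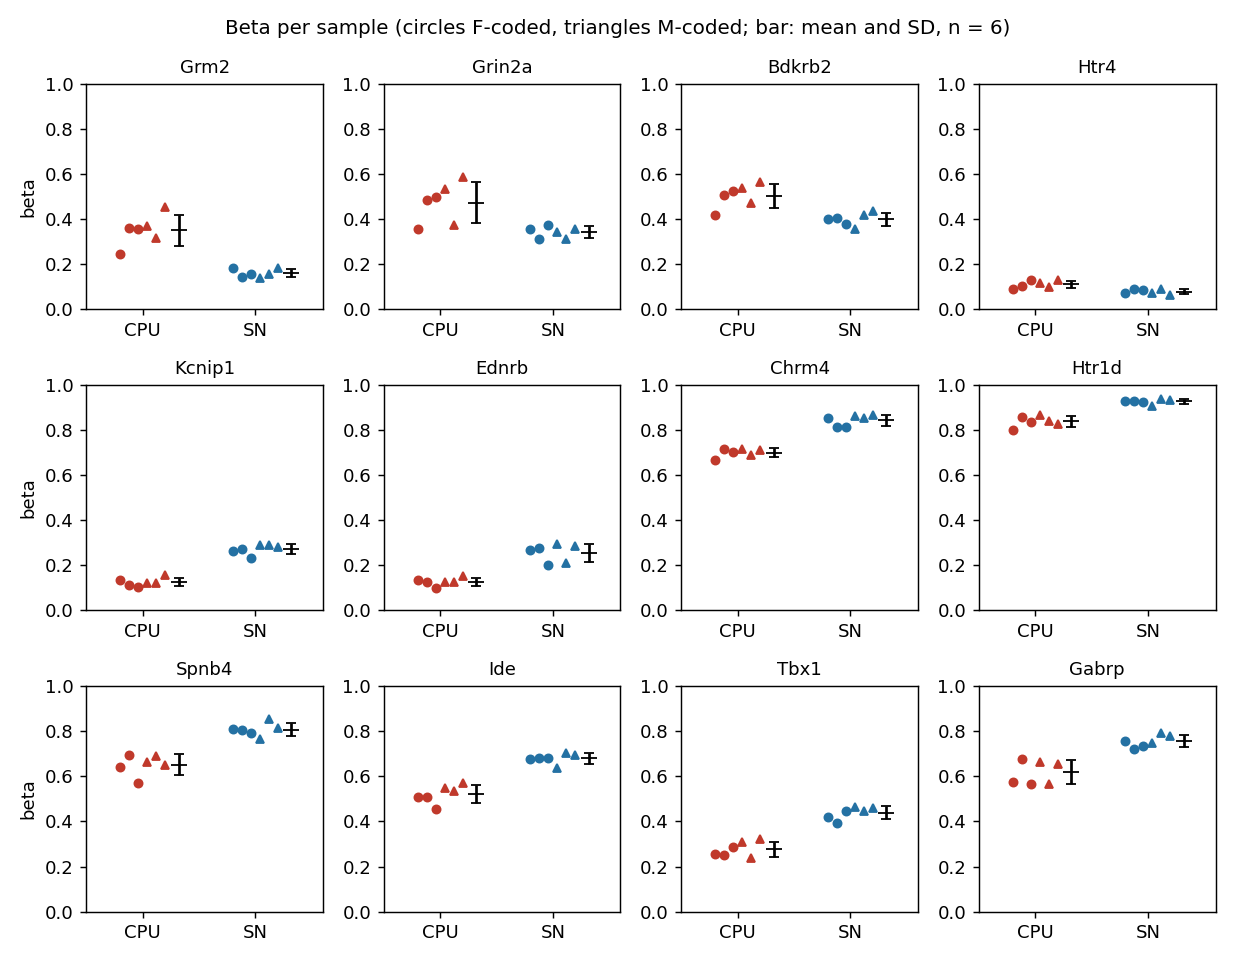
Beta in every CPU (left of each panel) and SN sample (right) at the 4 CpGs higher in CPU and at 8 of the CpGs lower in CPU, circles for F-coded and triangles for M-coded samples, with the mean and SD (n = 6) as a bar. CPU and SN do not overlap at any of these except Grin2a and Bdkrb2. CPU F1 is the lowest CPU sample at all 4 CpGs higher in CPU (Grm2, Grin2a, Bdkrb2 and Htr4).

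The CpGs of the dopamine receptors, through which nigral dopamine acts in the caudate-putamen, showed no difference that passed the test. None of the 5 was called by limma, none reached an unadjusted p of 0.05, and none was called with samples blocked by replicate code (the replicate block). Over all CpGs 7.59% were called and 20.9% had such an unadjusted p, so a count of 0 in 5 says little about these receptors as a group. Drd1a (D1, the receptor of direct-pathway spiny neurons) ran from 0.0324 through a median of 0.0347 to 0.0452 in CPU and from 0.0311 through 0.0344 to 0.0368 in SN. Its log2 difference of 0.069 had a 95% interval of -0.19 to 0.33. Drd2, the receptor of indirect-pathway spiny neurons and an autoreceptor of nigral dopamine neurons, averaged 0.0945 ± 0.00623 in CPU and 0.0919 ± 0.00757 in SN, with an interval of -0.17 to 0.27. Both CpGs were thus nearly unmethylated at both ends of the pathway, within intervals that leave room for small differences of either sign. Drd5 was also low, at 0.124 ± 0.00996 in CPU and 0.112 ± 0.0128 in SN (interval -0.11 to 0.44), and Drd4 was at 0.0755 ± 0.011 in CPU and 0.0832 ± 0.0102 in SN (-0.52 to 0.21). Drd3 was the exception in level: it was almost fully methylated, at 0.963 ± 0.0201 in CPU and 0.974 ± 0.00332 in SN (-0.95 to 0.14). Adora2a, the adenosine receptor of indirect-pathway neurons, was at 0.0552 ± 0.0089 in CPU and 0.0513 ± 0.00614 in SN (-0.37 to 0.58). The array holds no CpG of the genes listed as markers of nigral dopamine neurons, such as those for dopamine synthesis and transport, so the label of SN could not be checked against them, and with methylation alone the 3 striatal marker CpGs (Drd1a, Drd2, Adora2a) check neither label.

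Among 19 adrenergic and serotonin receptor CpGs, 1 was higher and 2 were lower in CPU, beside 1.05% and 6.54% of all CpGs, and 4 were called with the replicate block. Htr1d encodes a Gi-coupled serotonin receptor that lowers transmitter release. Its beta ran from 0.799 through 0.838 to 0.864 in CPU, against 0.906, 0.929 and 0.937 in SN, with no overlap (log2 difference -1.29 ± 0.20, adjusted p = 6.15e-06). CPU had the lowest and SN the highest mean of all 11 regions here, and the other 9 lay between 0.883 and 0.919. Adra2c, the alpha-2C adrenergic receptor, was lower at 0.726 ± 0.0416 in CPU against 0.807 ± 0.0179 in SN (adjusted p = 0.000933). Htr4, a Gs-coupled serotonin receptor, was higher at 0.111 ± 0.0158 in CPU against 0.0783 ± 0.0101 in SN, a change at a low level (log2 difference 0.55 ± 0.14, adjusted p = 0.00735) that was lost under quantile normalization (adjusted p = 0.102) and centring (0.0588).

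The acetylcholine and histamine receptors had 2 of 12 CpGs lower in CPU, beside 6.54% of all CpGs, and 1 was called after quantile normalization. Chrm4 encodes the Gi-coupled M4 receptor, known in the striatum from direct-pathway spiny neurons, where it opposes D1 signalling. Its beta ran from 0.665 through 0.706 to 0.715 in CPU, against 0.811, 0.852 and 0.868 in SN. The groups lay far apart (log2 difference -1.22 ± 0.20, adjusted p = 1.32e-05), and GP was near SN at 0.825. Apart from the 2 wild-type frontal cortex (FC_WT) samples, at a mean of 0.618, CPU was the lowest region. Chrna10, a nicotinic subunit known best from hair cells, was at 0.256 ± 0.0194 in CPU and 0.318 ± 0.0187 in SN (adjusted p = 0.0214), a call lost without SN M3, CPU F4 or CPU M3 and under quantile normalization.

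Of the 18 GABA receptor CpGs 1 was lower in CPU, a share near the 6.54% of all CpGs. It was Gabrp, the pi subunit of GABA-A receptors, at 0.617 ± 0.053 in CPU and 0.755 ± 0.0262 in SN without overlap (log2 difference -0.93 ± 0.20, adjusted p = 0.00104). In log2 value 13 of the 18 were higher in CPU, beside 233 of all 382 CpGs, with a median difference of 0.11, which was 0.031 after quantile normalization and turned to -0.0071 after centring. Gabrr1, the rho-1 subunit, was at 0.766 ± 0.052 in CPU and 0.666 ± 0.123 in SN and missed the threshold (adjusted p = 0.0615), with 1 SN sample, M3, far below the rest.

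Peptide receptors were the largest list, with 1 of 66 CpGs higher and 5 lower in CPU, beside 1.05% and 6.54% of all CpGs. Bdkrb2, the bradykinin B2 receptor, was the higher one: it ran from 0.416 through 0.516 to 0.563 in CPU, against 0.357, 0.402 and 0.436 in SN. In CPU, 5 samples lay above all SN samples, and the mean was the highest of the 11 regions (log2 difference 0.61 ± 0.16, adjusted p = 0.00739). Ednrb, which in brain is known chiefly from astrocytes and vessels, ran from 0.1001 through 0.127 to 0.155 in CPU, against 0.201, 0.274 and 0.293 in SN (-1.23 ± 0.23, adjusted p = 0.000155), and SN was the highest region. Galr3, a galanin receptor, was at 0.4996 ± 0.0506 in CPU and 0.641 ± 0.0488 in SN (adjusted p = 0.000788). Gcgr, the glucagon receptor, was at 0.511 ± 0.036 in CPU and 0.639 ± 0.022 in SN (adjusted p = 0.000788). Avpr1b, the vasopressin V1b receptor, had its lowest regional mean in CPU, at 0.592 ± 0.0416 against 0.706 ± 0.0408 in SN (adjusted p = 0.000788). The mean of FC_WT was nearly as low, at 0.595. Ppyr1, now Npy4r, a receptor for pancreatic polypeptide, stayed low at 0.0948 ± 0.00982 in CPU and 0.159 ± 0.0166 in SN (adjusted p = 0.0103).

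**Figure D3:**
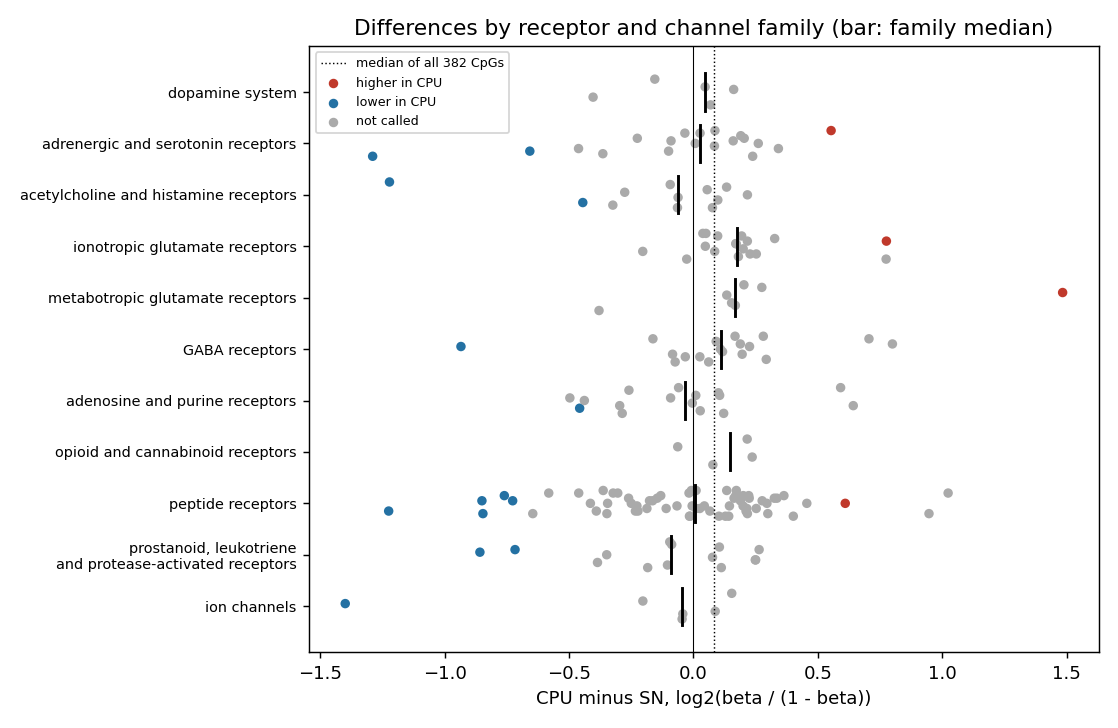
Log2 difference of each CpG, CPU minus SN (horizontal axis), by receptor or channel family, coloured where called, with the family's median as a bar and the median of all 382 CpGs as a dotted line. The ionotropic and metabotropic glutamate receptors have the highest medians (0.18 and 0.17), the 5 dopamine receptors are all uncalled, and the lowest point is Kcnip1 among the ion channels (-1.40). After quantile normalization (not shown) the ion channels (0.102) and the opioid and cannabinoid receptors (0.092) had higher medians than both glutamate receptor families (0.065 and 0.043).

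Other signalling receptors that were called were all lower in CPU. Of 14 prostanoid, leukotriene and protease-activated receptor CpGs, 2 were called, beside 7.59% of all CpGs: Cysltr2, a cysteinyl leukotriene receptor, at 0.541 ± 0.0286 in CPU and 0.659 ± 0.0452 in SN (adjusted p = 0.00827), and F2rl2, the protease-activated receptor PAR3, at 0.817 ± 0.0314 in CPU and 0.890 ± 0.0121 in SN (adjusted p = 0.0164, lost without CPU F1, under quantile normalization and on untransformed beta). P2rx4, an ATP-gated channel, was the 1 call of 16 adenosine and purine receptor CpGs, a share near that of all CpGs, at 0.248 ± 0.0294 in CPU and 0.311 ± 0.0276 in SN (adjusted p = 0.00967, lost without SN M3 or CPU F4 and under quantile normalization). None of 4 opioid and cannabinoid receptor CpGs was called by limma, at an unadjusted p of 0.05 or with the replicate block. Over all CpGs these shares were 7.59%, 20.9% and 42 of 382, so a count of none in 4 says little about this family. P2ry5, now Lpar6, a lysophosphatidic acid receptor once counted with the purine receptors, was at 0.432 ± 0.0715 in CPU and 0.335 ± 0.0319 in SN (adjusted p = 0.0803, or 0.0104 with the replicate block). Lhcgr, the luteinizing hormone receptor, was in no list and was at 0.524 ± 0.0599 in CPU and 0.647 ± 0.0308 in SN (adjusted p = 0.0218, lost without SN M4, CPU F1 or CPU F4 and with array M4_a alone).

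Among channel, axon and transport genes, Kcnip1 had the widest log2 difference of the lower calls. Its beta ran from 0.104 through 0.122 to 0.157 in CPU, against 0.233, 0.277 and 0.292 in SN (-1.40 ± 0.22, adjusted p = 7.16e-06). The groups lay far apart, SN was the highest of the 11 regions, and GP was close to CPU at 0.156. It was the 1 call of 6 ion channel CpGs, beside 7.59% of all CpGs. Cacna1d, the Cav1.3 calcium channel known for the pacemaking of nigral dopamine neurons, was at 0.776 ± 0.044 in CPU and 0.801 ± 0.0194 in SN (adjusted p = 0.6). Spnb4, now Sptbn4, ran from 0.571 through 0.656 to 0.696 in CPU, against 0.763, 0.807 and 0.852 in SN (-1.16 ± 0.19, adjusted p = 1.32e-05). Myo5a, the vesicle motor myosin Va, was at 0.634 ± 0.0271 in CPU, its lowest region, and 0.756 ± 0.0275 in SN (adjusted p = 0.000212). Ush1g, a scaffold protein of hair cells, was at 0.346 ± 0.0223 in CPU and 0.475 ± 0.0268 in SN (adjusted p = 0.0017). Neither the spectrin nor the myosin CpG had any overlap between CPU and SN samples.

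Tbx1 was the 1 call of 4 patterning gene CpGs, beside 7.59% of all CpGs, and had the widest difference of mean beta among the lower calls. It ran from 0.239 through 0.271 to 0.323 in CPU, against 0.391, 0.447 and 0.466 in SN (-1.03 ± 0.24, adjusted p = 0.00258), and regional means elsewhere spanned 0.113 in the granular cell layer (GCL) to 0.449 in the thalamus (TH). Ide, which degrades insulin and amyloid-beta, was the 1 call of 4 CpGs of Alzheimer-related genes, beside the same share of all CpGs. It ran from 0.454 through 0.522 to 0.569 in CPU, against 0.636, 0.681 and 0.704 in SN (-0.96 ± 0.18, adjusted p = 0.000178), and GP was at the level of SN, at 0.696. Neither of the 2 movement disorder CpGs was called by limma, at an unadjusted p of 0.05 or with the replicate block. With 7.59%, 20.9% and 42 of 382 of all CpGs passing these, the pair says little about such genes. Spnb4 and F2rl2 are also 2 of the 4 genes the study is known for, a list chosen on these samples. The other members, Tbxa2r, the thromboxane receptor, and Sorbs3, the adaptor vinexin, were at 0.813 ± 0.0558 and 0.576 ± 0.0743 in CPU, against 0.789 ± 0.0306 and 0.535 ± 0.0607 in SN (adjusted p = 0.541 and 0.539).

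A further 5 calls, named after their values were seen, were smaller differences, all lower in CPU. Hes3, a transcriptional repressor of the Hes family, was at 0.747 ± 0.0301 in CPU and 0.826 ± 0.0196 in SN (adjusted p = 0.00498). Rxfp2, the receptor of insulin-like peptide 3, was at 0.824 ± 0.034 in CPU and 0.886 ± 0.0152 in SN (adjusted p = 0.0017, lost under quantile normalization). Edg3, now S1pr3, a sphingosine 1-phosphate receptor, was at 0.113 ± 0.0159 in CPU and 0.173 ± 0.0275 in SN (adjusted p = 0.00618). Lhb, the beta chain of luteinizing hormone, was at 0.710 ± 0.0236 in CPU and 0.768 ± 0.0152 in SN (adjusted p = 0.0411). Notch3, a Notch receptor of vascular smooth muscle, was at 0.795 ± 0.0378 in CPU and 0.842 ± 0.0132 in SN (adjusted p = 0.0415, or 0.0567 with the replicate block). Lhb and Notch3 overlapped between the regions, and both calls were lost without any 1 of SN F1, F2, M3 or M4 or of CPU F1 or M3, on untransformed beta, under quantile normalization, with robust trended variances and with array M4_a alone. Lhb was also lost without CPU F4 or M1, and Notch3 without SN F4.

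None of the listed marker CpGs of glia and neurons passed the test. Over all CpGs 7.59% were called, 20.9% had an unadjusted p under 0.05 and 42 of 382 were called with the replicate block. The lists are short, so the counts below say little about these markers as groups. Of the 2 astrocyte marker CpGs none was called, and Gfap, the astrocyte intermediate filament, was at 0.778 ± 0.0455 in CPU and 0.784 ± 0.0208 in SN (adjusted p = 0.973). Of 8 oligodendrocyte marker CpGs none was called, 2 had an unadjusted p under 0.05, and 1 was called with the replicate block: Gm98, now Myrf, the myelin regulatory factor, at 0.375 ± 0.0369 in CPU and 0.452 ± 0.0417 in SN (adjusted p = 0.0744, or 0.0159 with the block). Both neuronal marker CpGs were uncalled, Gap43, a growth cone protein, at 0.350 ± 0.034 in CPU and 0.371 ± 0.0212 in SN, and Reln, an extracellular guidance protein, at 0.149 ± 0.0197 in CPU and 0.158 ± 0.0199 in SN. The part of cell makeup in the differences above was not tested, since methylation at marker genes does not count cells.

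Set beside the 9 other regions, the calls came from either end. SN had the highest mean of all 11 regions at 10 of the 29 calls and the lowest at none of them, and CPU the lowest at 5 and the highest at 3, while at 12 both lay within the range of the other regions. The counts for CPU depend on the small FC_WT group. Of all regions, FC_WT alone lay below CPU at Ide (0.372, CPU 0.521), Chrm4 (0.618, CPU 0.699) and Rxfp2. It alone lay above CPU at Htr4 (0.129, CPU 0.111). Some of the ranks counted were near ties. CPU was lowest at Avpr1b with 0.592 against 0.595 in FC_WT, and highest at Grin2a with 0.472 against 0.466 in the hypothalamus. SN was highest at Lhb with 0.7680 against 0.7675 in FC_WT. Tested against the mean of the 9 others in the same fit, CPU differed at 15 of the 29 calls and SN at 17. Over all CpGs, 6.81% were higher and 3.66% lower in CPU than in the others, and 12.3% were higher and 2.36% lower in SN. Both comparisons share the 9 regions, and CPU minus SN chose the 29 CpGs, so these counts are a description. The same holds for the ranks, which were not counted over all CpGs. Most of the 29 were chosen as lower in CPU, which favours a high rank of SN. At uncalled CpGs such as Jun (0.0256) and Hes1 (0.0223) SN had the lowest mean of the 11 regions. The mean of GP, which CPU axons reach on their way to SN, was between CPU and SN at 21 of the calls. It was nearer to SN at 19 and nearer to CPU at 10, with Grm2, Ide and Chrm4 among those nearer to SN and Kcnip1, Ednrb and Lhb among those nearer to CPU. The counts for GP were not made over all CpGs. CpGs chosen for a gap between CPU and SN favour a GP mean in between, so these counts too are a description. GP has 5 samples, and GP M3 lay far below the rest at Ednrb (0.0955, others 0.176 to 0.213) and Kcnip1 (0.0763, others 0.144 to 0.194). It was also the lowest GP sample at Edg3 (0.0892, others 0.131 to 0.174) and Lhcgr (0.508, others 0.517 to 0.667). The side on which GP lies at Ednrb, Edg3 and Lhcgr may therefore rest on GP M3, and with it the split of 19 against 10.

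**Figure D4:**
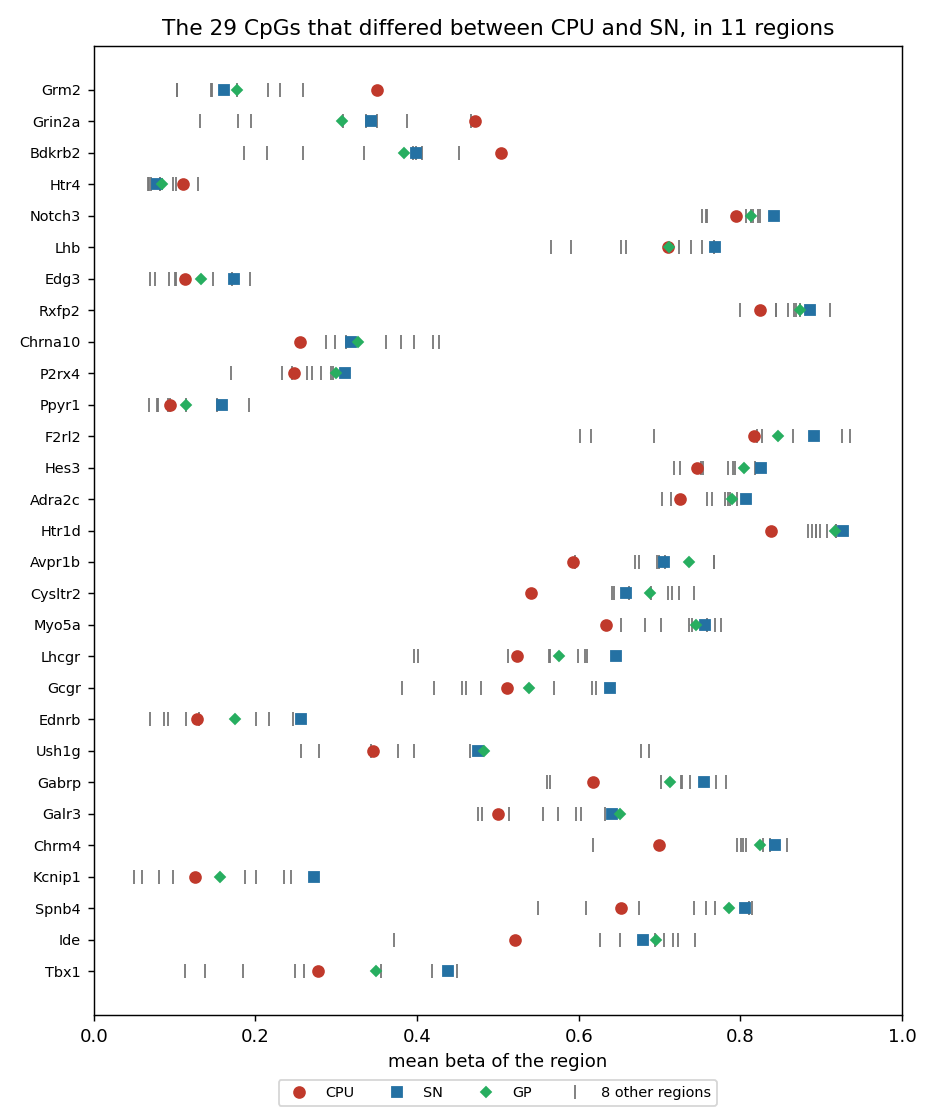
Mean beta (horizontal axis) of CPU (circle), SN (square), GP (diamond) and the other 8 regions (ticks) at the 29 CpGs that differed, those higher in CPU at the top and the others below them from the smallest to the widest difference. CPU is rightmost at Grm2, Grin2a and Bdkrb2 and leftmost at Htr1d, Cysltr2, Chrna10, Myo5a and Avpr1b, and SN is rightmost at 10 CpGs, among them Kcnip1, Ednrb and Htr1d.

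Neither the mean nor the lower quartile of beta per array differed between CPU and SN at 0.05 by exact permutation test. Mean beta over the 382 CpGs was 0.272 ± 0.00965 in CPU and 0.277 ± 0.0076 in SN, a difference of -0.00499 (exact permutation test, two-sided, p = 0.366). The lower quartile of beta was 0.0595 ± 0.00678 in CPU and 0.0539 ± 0.00141 in SN (exact p = 0.0519), and the array median was higher in CPU by 0.12 on the log2 scale. CPU F1 stood apart, with a lower quartile of 0.0711, an upper quartile of 0.395 and the lowest mean beta of CPU, 0.260. Without it 28 CpGs were called, 7 higher and 21 lower, so the count of higher calls moved with it. The SD was larger in CPU at 285 of the 382 CpGs, with a median of 0.0155 in CPU and 0.0112 in SN. The median correlation of profiles was 0.987 within regions and 0.983 between CPU and SN, a difference of 0.00339 (exact permutation test, one-sided, p = 0.0844). Without the 17 X-linked CpGs, an alternative chosen after the data were seen, these were 0.994 and 0.988 (exact p = 0.00216, the smallest that this test can give).

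The code letters F and M separated the X-linked CpGs in both regions. Their mean beta was 0.329 to 0.341 in F-coded CPU samples and 0.313 to 0.369 in F-coded SN samples, and 0.479 to 0.521 in M-coded CPU samples and 0.509 to 0.540 in M-coded SN samples. None of the 17 X-linked CpGs was among the 29 calls, which came from a fit without the letter. The difference between CPU and SN did not depend detectably on the letter: the interaction passed at no CpG in limma (smallest adjusted p = 0.997), and 1 CpG reached an unadjusted p of 0.05. Blocking by replicate code also takes up the letter. In that fit 42 CpGs were called, 9 higher and 33 lower in CPU, and 28 of the 29 calls stayed. The CpGs it added include the X-linked Glra2 (limma adjusted p = 0.0255, or 0.525 in the main fit) and Htr2c (0.0258, or 0.513). Both were lower in CPU.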

How the data were processed

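Genomic DNA was extracted with phenol, bisulphite-converted and hybridised with Cy3 and Cy5 label to a custom Illumina GoldenGate array, per the labels' protocols and the design text of the series. The authors' deposited beta values, a fraction of methylated signal per CpG and array, were used as given. The sources used here name no normalization, background correction or filter, and bead numbers were not used, so the number of arrays limits the precision. CPU M4_a and M4_b (r = 0.987, CPU pairs 0.966 to 0.997) were averaged, and none of 78 pairs of CPU and SN arrays was identical.

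CPU minus SN was tested with limma 3.58.1 (R 4.3.3) on log2(beta / (1 - beta)), beta limited to 0.01 to 0.99, in 1 fit of the 53 samples of 11 regions with Benjamini-Hochberg adjustment over 382 CpGs at 0.05. Tables, exact tests and figures used pandas 2.3.3, scipy 1.17.1 and matplotlib 3.10.9 with numpy 2.4.6 in Python 3.11.15. Exact tests enumerated 924 allocations of samples, or 64 within codes. The fit was tested on simulated data.

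Codes recur in both regions. Deviations from the region means correlated between same-coded samples at 0.233 to 0.647 over all CpGs, each above 0.1, but at 0.203 to 0.722 between other samples of the same letter, and 2 of 6 codes correlated best with themselves. Over autosomal CpGs the same-code values were -0.269 to 0.332. The pairing is a hint from the data, as no label states it, and blocked values are given where a call changes.

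Members and lists were chosen with earlier results of these data known. Named CpGs were the 15 calls with the widest difference in each direction, the dopamine receptors, the study's genes and up to 4 per list by adjusted p, of which 1 is not reported here. Array names gave 362 current symbols and 20 synonyms in a RefSeq table (GRCm38.p6), and promoters were listed for genes of 284 CpGs. Alternatives are named in the closing section.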

Additional observations from a re-analysis of the deposited data

Results flagged for a closer look

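At 4 CpGs of dopamine and adenosine receptors, CPU F1 lay far from the other 5 CPU samples by Dixon's test. It was high at Adora2a (0.0718, median of the others 0.0525), Drd1a (0.0452, others 0.0341) and Drd5 (0.143, others 0.120) and low at Drd3 (0.923, others 0.971). Its part in the results was measured by leaving it out, as given with the whole-array values. In SN, M3 was far below the others at Gabrr1 (0.423, others 0.725) and above them at Galr3 (0.738, others 0.620). These are 6 of 94 groups tested, and chance alone gives about 1 in 20.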

How the results depend on the processing

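The count of calls stayed within 24 to 42 under the alternatives to the fit: 37 with only the 12 CPU and SN samples, 42 with the replicate block, 41 with the code letter as a covariate, 29 on untransformed beta, 30 with beta limited to 0.05 to 0.95, 27 after quantile normalization, 35 with each array centred on its median, 29 of 316 CpGs with mean beta of 0.05 to 0.95, 29 without X-linked CpGs, 27 with robust trended variances, and 27 or 30 with array M4_a or M4_b alone. Leaving out each sample in turn gave 24 to 31 calls, 3 to 7 higher and 21 to 27 lower in CPU, and 22 of the 29 calls stayed in all 12 such fits. The count of higher calls, 4, became 7 with the 12 samples only, 9 with the replicate block, 7 with the code letter, 7 without CPU F1 and 2 after centring. A minimum difference of 0.1 left 17 calls, 3 higher and 14 lower, and of 0.2 left 0, 0 higher and 0 lower, by construction. Without X-linked CpGs the within-minus-between correlation was 0.00552 (exact p = 0.00216, 1-sided) in place of 0.00339, and with Spearman's coefficient it was 0.00276 (p = 0.0714). The replicate block changed neither the mean beta (exact p = 0.469) nor the lower quartile call (p = 0.0938). It ended 1 call, Notch3, and added 14 CpGs, 5 higher and 9 lower. Log2 differences changed sign at CpGs that were never called: Adora2a (-0.052 quantile, -0.014 centred), Drd1a (-0.12, -0.051), Drd2 (-0.029, -0.073), Cacna1d (0.049 quantile) and Gfap (0.21 quantile, 0.066 with M4_a). Leaving out 1 sample at a time gave -0.0022 to 0.077 at Drd2 and -0.10 to 0.11 at Gfap. The cause was not tested. The other recomputed values were 991 with the same direction and side of the threshold, 54 that lost a threshold and 19 that passed one. Bead-level signal over background was not used here, so its limit on low betas such as those of Drd1a is not known.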

Other observations

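The pair of arrays of CPU M4 differed by a median of 0.023 in beta, by a median of 0.0621 and at most 0.127 at the 29 calls, and by 0.435 at Sctr, the secretin receptor. At 5 CpGs the arrays differed by more than the widest difference between CPU and SN, 0.189. Some of these CpGs, chosen after their values were seen, were high in the same samples. Sctr was at 0.434 in CPU F1, 0.487 in CPU F4 and 0.503 on array M4_b, against 0.0507 to 0.0813 in CPU F2, M1 and M3 and 0.0681 on array M4_a. Kiss1r, the kisspeptin receptor, was at 0.279, 0.452 and 0.338 in the same 3 and at 0.0517 on array M4_a, and Adcy9, an adenylyl cyclase, at 0.313, 0.459 and 0.399, with 0.117 on M4_a. In SN the sample M3 was the highest at each of them, at 0.219, 0.149 and 0.208. None of the 3 was called between CPU and SN (adjusted p = 0.503, 0.373 and 0.346), with mean differences of 0.126, 0.104 and 0.106.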
